A study of Rattus norvegicus with 6 samples.

Results

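Chemokines, interleukins, their receptors and the endothelial adhesion molecules were examined in left ventricular muscle of rats fed 3 diets. The genes were chosen by annotation and not by signal. Taken were all probe sets annotated to a single symbol that starts with Ccl, Cxcl, Ccr or Il followed by a number, or to Tnf, Cx3cl1, Vcam1, Icam1, Sele or Selp. The rule found 114 probe sets for 90 genes, out of 14217 genes with a symbol on the array. The probe set with the highest mean over the 6 arrays stood for each gene. Of the 90 genes, 33 had a mean signal at or above 5.34 log2 units, the median of all probe sets, and the other 57 lay below it. The 57 were set apart, since signals in that range may hold little beyond background, and none of them was dropped. The share at or above the median was 36.7% of these genes and 65.5% of all genes.

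The study fed male Wistar rats a Control, a Western or a Western plus docosahexaenoic acid (DHA) diet for 12 weeks from 6 weeks of age, with the aim of producing left ventricular hypertrophy with few other diseases. DHA is a long-chain omega-3 fatty acid. Each diet had 10 rats, and each of its 2 arrays carried RNA pooled from 5 of them, so 6 arrays were available. All rats were fasted overnight and were 18 weeks old at collection, and sex, strain and age were shared by all groups. What the diets contained was not given in the sources read. Because a replicate is a pool, the spread between rats was not measured, and every test below rests on 2 pools per diet.

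Chemokines are small secreted proteins that draw leukocytes along a gradient. CC chemokines mainly attract monocytes, macrophages and lymphocytes through CCR receptors, while many CXC chemokines attract neutrophils or lymphocytes. Interleukins act through cytokine receptors that share chains, among them gp130 (Il6st) for the interleukin-6 family and the common gamma chain (Il2rg) for interleukins such as interleukin 2, 4, 7 and 15. Tumour necrosis factor and interleukin 1 activate endothelium through NF-kappaB, and the endothelium then displays selectins, ICAM-1 and VCAM-1, on which leukocytes roll and hold fast. In heart muscle these genes are known mainly from resident macrophages, endothelium and fibroblasts, and they are studied after infarction and under pressure load.

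NF-kappaB binds short sites in the promoters of several of these genes, so promoter sequence is shown for 3 of them. The 250 bases before the transcript start, from RefSeq on build GRCr8, were searched on both strands for the motif GGNNTTTCC, whose reverse complement is GGAAANNCC. Of 33469 such windows of all genes, 5.19% held a match. A window was at hand for 68 of the 90 genes, and 14 of these 68 held a match, which is 20.6% of genes. Counted in windows, as for all genes, it was 14 of 70. Among the 33 genes at or above the median level, 26 had a window and 4 a match, namely Cxcl9, Cxcl11, Icam1 and Vcam1. Vcam1, Icam1, Cxcl1 and Cxcl2 each held 2 matches. The first 3, which belong to the panel of genes described in full, are printed 5′ to 3′ on the strand of the gene, with the matches in capitals. The windows are chr2:206742784-206743033 on the minus strand for Vcam1, chr8:27829595-27829844 on the plus strand for Icam1 and chr14:17479322-17479571 on the minus strand for Cxcl1. In Vcam1 the matches begin 246 and 93 bases before the start, in Icam1 218 and 149, and in Cxcl1 102 and 83. A match describes these letters and was not tested as a binding site.
Vcam1: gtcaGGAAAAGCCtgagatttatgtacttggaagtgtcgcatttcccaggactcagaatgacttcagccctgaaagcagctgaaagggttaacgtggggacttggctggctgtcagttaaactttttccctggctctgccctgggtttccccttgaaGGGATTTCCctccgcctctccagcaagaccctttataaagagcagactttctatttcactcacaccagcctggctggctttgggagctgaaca
Icam1: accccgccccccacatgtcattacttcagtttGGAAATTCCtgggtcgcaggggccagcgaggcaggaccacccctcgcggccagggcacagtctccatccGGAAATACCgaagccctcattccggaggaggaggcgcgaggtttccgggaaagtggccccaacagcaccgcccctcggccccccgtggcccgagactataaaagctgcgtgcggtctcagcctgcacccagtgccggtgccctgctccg
Cxcl1: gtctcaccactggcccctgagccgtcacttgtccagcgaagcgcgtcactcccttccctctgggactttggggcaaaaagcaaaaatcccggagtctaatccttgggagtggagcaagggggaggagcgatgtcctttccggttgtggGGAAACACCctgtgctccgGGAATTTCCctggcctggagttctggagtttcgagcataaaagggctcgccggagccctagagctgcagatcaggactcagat

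The deposited values are log2 signals after RMA, a method that gives all arrays a common distribution, and the array medians lay between 5.33 and 5.36. Signals of different genes do not rank their transcripts, because probe sets differ in how well they bind. The tissue label was checked against 9 measured cardiomyocyte markers, whose mean signals ran from 12.5 for Ryr2 to 13.9 for Myl2. The log2 of their summed signal lay between 16.63 and 16.71 on the 6 arrays. Of 12 macrophage markers 11 were measured, from 5.29 for Adgre1 to 7.96 for C1qa, and 10 were at or above the median of all probe sets. In whole tissue, more cells of a type and more RNA per cell cannot be told apart.

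No gene of the 90 passed the test between any diets. The test was limma with Benjamini-Hochberg adjustment over 31042 probe sets and a threshold of 0.05. For Western against Control 0 of the 33 genes and 0 of the 57 genes were called, and 0.0% of all probe sets. In Western plus DHA against Control the counts were 0 of 33 and 0 of 57, beside 0.00322% of all probe sets, which is 1 probe set. Western plus DHA against Western gave 0 of 33 and 0 of 57, beside 0.0%. The F test over the 3 diets also called 0 of the 90, beside 0.00322% of all probe sets. The lowest adjusted p among the 90 genes was 1, 0.562 and 0.983 in the 3 comparisons and 0.900 in the F test. Over the 33 genes the standard error of a difference had a median of 0.174, beside 0.143 for all 9308 genes at or above the median. At an unadjusted p under 0.05 the 33 genes gave 1, 3 and 5 calls in the 3 comparisons, each named below. Of all 9308 genes, 0.602%, 2.95% and 1.29% were higher at that threshold, and 0.494%, 5.5% and 1.7% were lower. The 2 comparisons of the DHA diet share its arrays, and the 2 comparisons with Control share the Control arrays, so their values are set side by side and not counted as separate support.

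**Figure D1:**
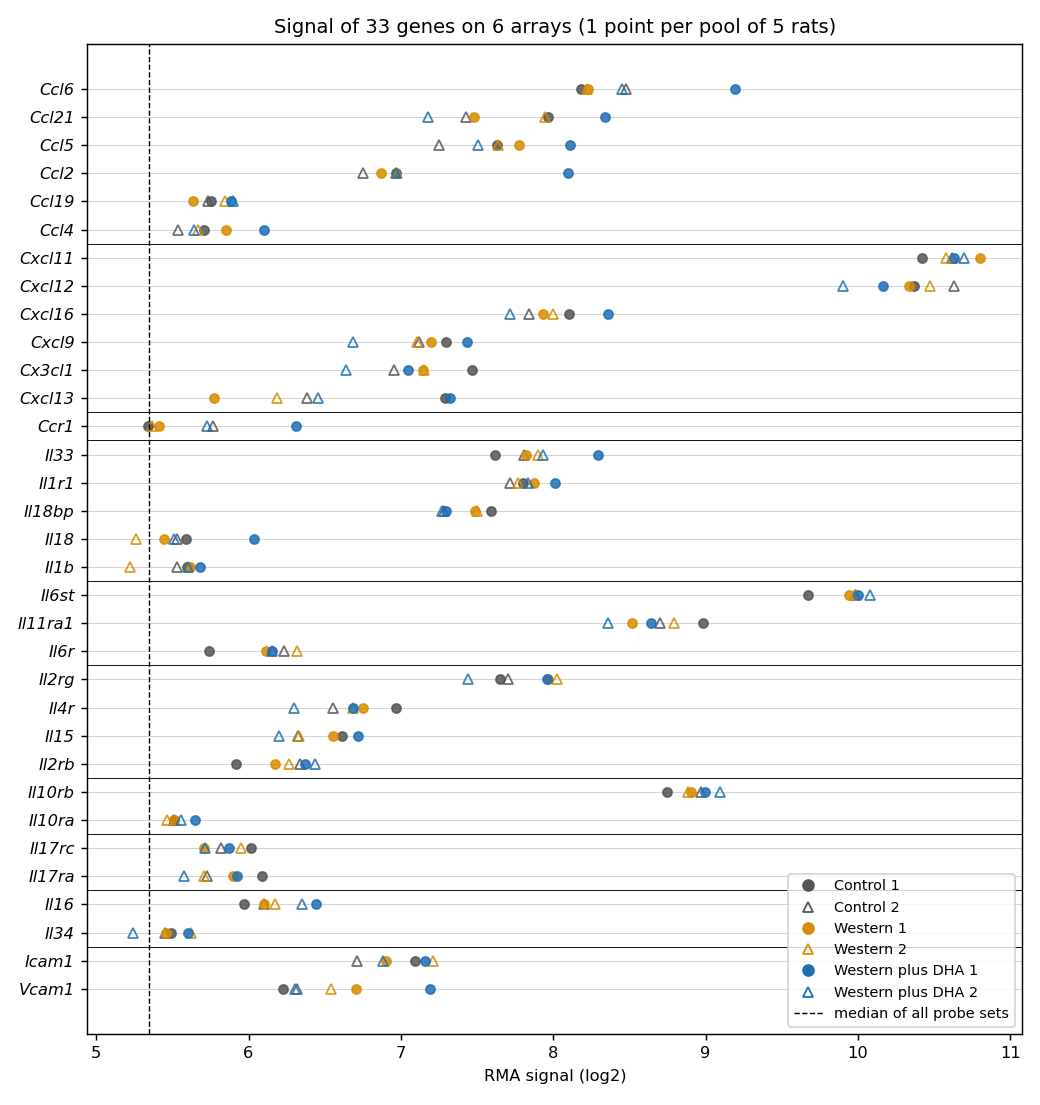
RMA signal (log2, horizontal axis) of the 33 genes at or above the median of all probe sets on the 6 arrays, 1 row per gene, filled circles for pool 1 and open triangles for pool 2 of each diet. The filled blue circles of the first Western plus DHA pool are the right-most points for 17 of the 33 genes, with Ccl2, Ccl6 and Ccr1 standing farthest from their other points.

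Most CC chemokines at or above the median were highest on the first Western plus DHA pool, as were 17 of all 33 genes. Of 16 CC chemokine genes 6 were at or above the median. All 6 had a log2 difference above 0 for Western plus DHA against Control, beside 48.6% of all genes at that level. Their median was 0.31. All 6 also lay above 0 against Western, beside 49.5%, with a median of 0.13. On 5 of the 6, namely Ccl2, Ccl4, Ccl5, Ccl6 and Ccl21, the highest of the 6 arrays was the first Western plus DHA pool. Ccl19 was the exception, and that array was the highest for 23.1% of all genes at that level. In the interleukin-1 family 4 of 5 genes at or above the median were also highest there. None of these differences passed the test.

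Ccl2, the monocyte chemoattractant MCP-1, read 6.97 and 6.75 on the Control arrays, 6.87 and 6.98 on the Western arrays and 8.10 and 6.97 on the Western plus DHA arrays. The first Western plus DHA pool lay above the other 5 arrays by more than 1 log2 unit, while the second lay within the range of the Western pools. The difference from Control was 0.67 ± 0.306 (SE), a 1.59-fold ratio, with a limma adjusted p of 0.570. Without the first Western plus DHA pool it was 0.11, and without the second 1.24. Against Western it was 0.61 ± 0.306, and 0.05 without the first pool.

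Ccl7, a monocyte attractant related to Ccl2 and below the median level, was also highest on the first Western plus DHA array. Its signal was 4.61 and 4.81 for Control, 4.66 and 4.77 for Western and 5.81 and 4.75 for Western plus DHA. The difference from Control was 0.57 ± 0.291, and 0.04 without the first Western plus DHA pool.

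Ccl6, a macrophage chemokine of rodents, had signals of 8.18 and 8.48 in Control, 8.23 and 8.22 in Western, and 9.19 and 8.45 in Western plus DHA. Both DHA arrays lay above both Western arrays, but the second lay just below the second Control array. The difference was 0.60 ± 0.228 against Western (limma adjusted p 0.983) and 0.49 ± 0.228 against Control (0.570). Without the first Western plus DHA pool these values were 0.23 and 0.12.

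Ccl5 (RANTES), which attracts T cells and monocytes, read 7.63 and 7.25, then 7.78 and 7.64, then 8.11 and 7.51 in the same order of diets. Both Western arrays lay above both Control arrays, by a mean of 0.27 ± 0.214. The second Western plus DHA pool lay below both Western pools, and the difference between these diets was 0.40 without the second pool and −0.20 without the first. Ccl4 (MIP-1 beta) differed by 0.25 between Western plus DHA and Control and by 0.02 without the first Western plus DHA pool. Ccl21, which guides lymphocytes and dendritic cells into lymphatics, ranged from 7.18 on the second Western plus DHA array to 8.34 on the first, so that the pools of a single diet held its lowest and its highest value. Ccl19, which shares the receptor CCR7 with Ccl21, behaved otherwise and read 5.88 and 5.90 on the Western plus DHA arrays against 5.75 and 5.73 in Control and 5.63 and 5.85 in Western.

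The 10 CC chemokines below the median were Ccl3, Ccl24, Ccl17, Ccl27, Ccl7, Ccl22, Ccl20, Ccl28, Ccl11 and Ccl9, with mean signals from 5.06 down to 2.62. Ccl17, a ligand of CCR4, was the steadiest of them between DHA pools. Its signals of 5.27 and 5.28 on the Western plus DHA arrays lay above the 4 others, which ran from 4.83 to 4.93. The difference was 0.40 ± 0.121 against Control (limma adjusted p 0.562) and 0.40 ± 0.121 against Western (0.983), and stayed between 0.35 and 0.44 when any single array was left out. Ccl3 (MIP-1 alpha) read 5.59 and 5.05 on the Western plus DHA arrays and 4.84 to 5.03 on the other 4, and its difference from Control was 0.45, or 0.17 without the first DHA pool. Ccl11 (eotaxin) read 3.41 and 3.15 there and 2.91 to 3.24 on the others. Ccl20, a ligand of CCR6, was above both Control arrays on both Western arrays, at 3.85 and 3.70 against 3.37 and 3.52.

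Among the CXC chemokines and Cx3cl1, differences of the DHA diet lay on both sides of 0. Of 12 genes 6 were at or above the median, and 3 of these 6 lay above 0 for Western plus DHA against Control, with a median of −0.05. Cxcl12 (SDF-1), the ligand of CXCR4 and a signal that retains and recruits progenitor cells, had its lowest signals on the Western plus DHA arrays. It read 10.37 and 10.63 in Control, 10.34 and 10.48 in Western and 10.17 and 9.90 in Western plus DHA. Both DHA arrays lay below the other 4. The difference was −0.46 ± 0.153 from Control, a ratio of 0.725, and −0.37 ± 0.153 from Western, with limma adjusted p of 0.562 and 0.983. The other 2 probe sets of Cxcl12 differed by 0.24 and 0.04 between Western plus DHA and Control, so the probe sets of the gene disagreed in direction.

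Cxcl13, the B cell attractant that binds CXCR5, had the widest spread of the 33 genes. Its signals were 7.29 and 6.38 in Control, 5.77 and 6.19 in Western and 7.32 and 6.46 in Western plus DHA. Both Western arrays lay below the other 4. The difference was −0.86 ± 0.344 for Western against Control, a ratio of 0.552, which was also the lowest log2 difference among all 9308 genes at or above the median in that comparison. It was −0.41 without the first Control array. Western plus DHA differed from Western by 0.91 ± 0.344, and by 0.48 without the first DHA pool. The limma adjusted p was 1 and 0.983, and the pools differed by 0.90 within Control and by 0.87 within Western plus DHA. Measured B cell markers were all below the median, with a log2 summed signal between 6.23 and 6.58. The part of B cells in the Cxcl13 values was not tested.

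Cx3cl1 (fractalkine), a membrane-bound chemokine of endothelium, read 7.46 and 6.96 in Control, 7.15 and 7.15 in Western and 7.05 and 6.64 in Western plus DHA. Both DHA arrays lay below both Western arrays, with a difference of −0.31 ± 0.198, or −0.10 without the second DHA pool. Cxcl16, a scavenger-type ligand of CXCR6, and Cxcl9, an interferon-induced ligand of CXCR3, were highest on the first Western plus DHA array and lowest on the second. Their signals there were 8.36 and 7.72 for Cxcl16 and 7.43 and 6.68 for Cxcl9, so neither gave a stable difference between diets. A second Cxcl9 probe set above the median was highest on the first Western array, at 6.64. It read 6.47 and 6.16 on the DHA arrays. Cxcl11, the third ligand of CXCR3, had signals from 10.42 to 10.80. In GRCr8 Cxcl11 lies within the span of Art3 on the opposite strand, and the Art3 probe set had a mean signal of 12.03. The share of Art3 transcripts in the Cxcl11 signal was not tested.

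The 6 CXC chemokines below the median were Cxcl3, Cxcl10, Cxcl1, Cxcl14, Cxcl6 and Cxcl2. Cxcl1, a neutrophil attractant, read 4.68 and 4.76, then 4.78 and 4.81, then 5.40 and 4.91 across Control, Western and Western plus DHA. Both DHA arrays lay above the other 4, by 0.44 ± 0.170 over Control with a limma adjusted p of 0.562, and by 0.19 without the first DHA pool. Cxcl14 read 4.84 and 4.40 on the DHA arrays against 4.18 and 3.97 in Control, a difference of 0.55 ± 0.196, or 0.33 without the first DHA pool. Cxcl10, an interferon-induced chemokine, was highest on the first DHA array at 5.46 and lowest on the second at 4.50.

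Of the 6 CC chemokine receptor genes measured, Ccr1 alone was at or above the median. Ccr1, a receptor of monocytes and neutrophils for Ccl3 and Ccl5, read 5.34 and 5.77 in Control, 5.42 and 5.36 in Western and 6.31 and 5.73 in Western plus DHA. Both DHA arrays lay above both Western arrays, by 0.63 ± 0.214, the lowest unadjusted p of the 33 genes in that comparison, but the limma adjusted p was 0.983. Without the first DHA pool the difference was 0.34. Ccr2, the receptor of Ccl2 and below the median, read 3.20 and 3.69 in Control, 3.86 and 3.84 in Western and 3.84 and 4.04 in Western plus DHA. Its Control arrays lay below the other 4, and the difference from Control was 0.50 ± 0.174 in the DHA diet, with a limma adjusted p of 0.562. Without the first Control array it was 0.25 in the DHA diet and 0.16 in the Western diet, where it had been 0.41. Ccr3, Ccr4, Ccr6 and Ccr10 had means from 2.69 to 4.93.

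**Figure D2:**
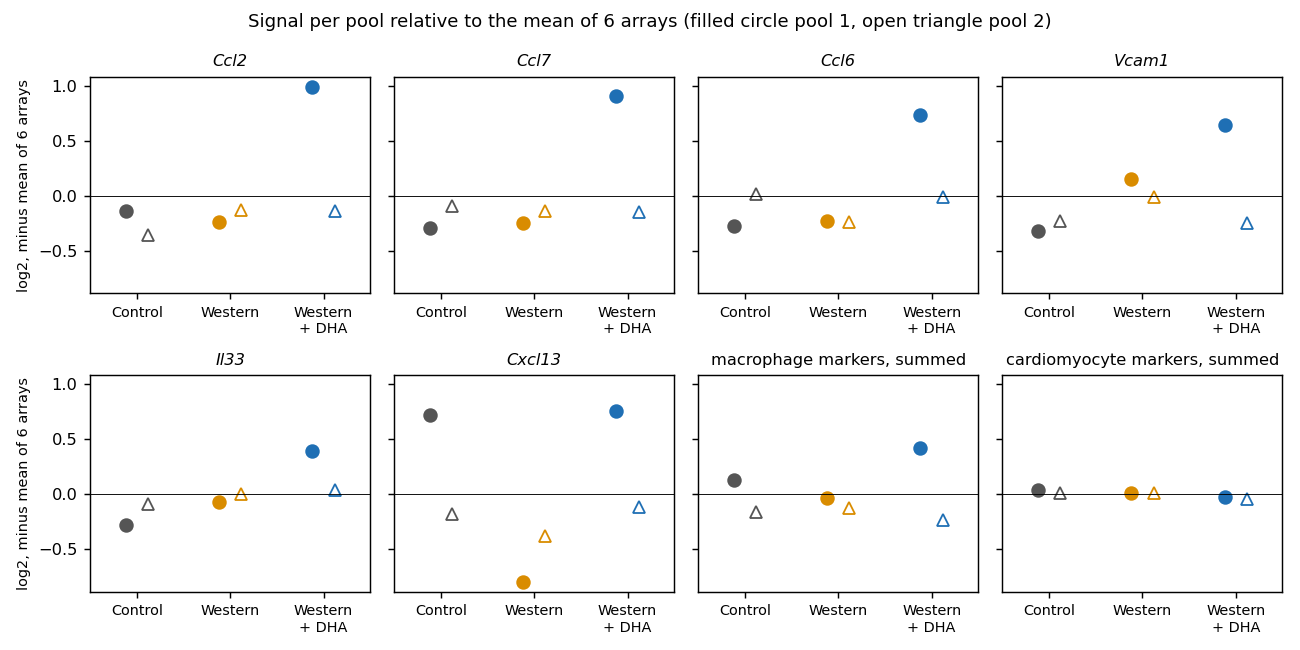
Signal of 6 genes and the log2 of the summed signal of macrophage and cardiomyocyte markers, each minus its mean over the 6 arrays (log2, vertical axis), by diet. For Ccl2, Ccl7, Ccl6 and Vcam1 the first Western plus DHA pool (filled circle) stands above every other pool, as it does for the macrophage markers. The cardiomyocyte markers stay within 0.08 of each other. Not drawn are the marker sums of T cells, mast cells, fibroblasts, endothelium, epicardium and mesothelium, erythroid cells and adipocytes, which were also highest on that pool. Those of B cells and neutrophils, also not drawn, were not.

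In the interleukin-1 family 5 of 13 genes were at or above the median. Il33, an alarmin released from stressed fibroblasts and endothelium, had 2 probe sets above the median. The brighter read 7.62 and 7.81 in Control, 7.82 and 7.90 in Western and 8.29 and 7.94 in Western plus DHA. The other read 5.59 and 6.05, then 6.15 and 6.14, then 6.45 and 6.51. In both, each DHA array lay above the 4 arrays of the other diets. The difference from Control was 0.40 ± 0.155 and 0.66 ± 0.164 for these probe sets, with a limma adjusted p of 0.562 for the brighter. It was 0.22 for the brighter without the first Western plus DHA pool. Il1rl1, the receptor of interleukin 33, was below the median, with signals from 4.57 to 4.98, and its DHA arrays lay just below both Western arrays. The other Il1rl1 probe set had the reverse order, with 2.96 and 2.69 on the DHA arrays and 2.65 on each Western array.

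Il18, which drives interferon gamma and matures by caspase 1, read 5.59 and 5.53 in Control, 5.45 and 5.26 in Western and 6.04 and 5.51 in Western plus DHA. Both Western arrays lay below the other 4. The difference was 0.42 ± 0.181 for Western plus DHA against Western, 0.16 without the first DHA pool, and −0.21 ± 0.181 for Western against Control. Il18bp, the secreted inhibitor of interleukin 18, read 7.29 and 7.27 on the DHA arrays and 7.49 and 7.50 on the Western arrays, a difference of −0.21 ± 0.139. Il1b lay just above the median at 5.54, with signals from 5.22 to 5.68, and its difference from Control was 0.08 ± 0.154 in the DHA diet. Il1r1, the signalling receptor of interleukin 1, read 8.02 and 7.83 on the DHA arrays and 7.80 and 7.72 in Control, a difference of 0.16 ± 0.129. Il1a, Il1rn, Il1r2, Il1rap, Il1rl2, Il36b and Il36rn were below the median. Il1r2, the decoy receptor of interleukin 1, was above both Control arrays on both Western arrays, at 3.07 and 3.37 against 2.78 and 2.80.

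The receptor chains of the gp130 family were among those at or above the median, while the ligands Il6 and Il11 and the receptor Il27ra were below it. Il6st (gp130) read 9.67 and 9.98 in Control, 9.94 and 9.99 in Western and 10.00 and 10.08 in Western plus DHA. The difference of the DHA diet from Control was 0.21 ± 0.140, but a second probe set of the gene gave −0.34 and the remaining 2 gave 0.14 and 0.12. Il6r, the interleukin-6 binding chain, had its lowest array in Control, at 5.74, and its other 5 arrays between 6.11 and 6.32. Il11ra1, the interleukin-11 receptor, read 8.64 and 8.36 on the DHA arrays against 8.98 and 8.70 in Control, a difference of −0.34 ± 0.166 with a limma adjusted p of 0.575, or −0.20 without the first Control or the second DHA array. Il6 itself had a mean of 2.52 and signals from 2.33 to 2.84, with the highest on the first DHA array.

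Receptors that use the common gamma chain lay on both sides of 0. Il2rg, the common gamma chain, read 7.65 and 7.71 in Control, 7.97 and 8.03 in Western and 7.96 and 7.44 in Western plus DHA. Both Western arrays lay above both Control arrays, by 0.32 ± 0.174 with a limma adjusted p of 1. Il2rb, a signalling chain for interleukins 2 and 15, read 6.37 and 6.44 on the DHA arrays against 5.92 and 6.34 in Control. Il4r, the interleukin-4 receptor, read 6.97 and 6.55 in Control and 6.69 and 6.30 in Western plus DHA, a difference of −0.27 ± 0.183, or −0.058 without the first Control array. Il15, a survival factor of natural killer and memory T cells, differed by −0.01 ± 0.195 between the same diets. Il2, Il2ra, Il4, Il7, Il7r, Il9r, Il13 and Il13ra2 were below the median.

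Among the remaining interleukins, Il16 stood higher on both DHA pools. Il16, a chemoattractant for CD4+ cells, read 5.97 and 6.10 in Control, 6.10 and 6.17 in Western and 6.44 and 6.35 in Western plus DHA. Both DHA arrays lay above the other 4. The difference from Control was 0.36 ± 0.125 with a limma adjusted p of 0.562, and it stayed between 0.29 and 0.43 with any single array left out. Il34, a ligand of the CSF-1 receptor, read 5.24 to 5.62. Il10ra and Il10rb, the receptor chains of interleukin 10, had differences of 0.09 ± 0.119 and 0.19 ± 0.131 from Control in the DHA diet, while Il10 had a mean of 2.22. A second, dimmer Il10ra probe set gave −0.02. Il17ra and Il17rc differed by −0.16 and −0.12. Il24, an interleukin-10 family cytokine below the median, read 3.34 and 3.81 in Western plus DHA against 2.92 and 3.05 in Control, a difference of 0.59 ± 0.171 that had the lowest unadjusted p of the 90 genes in that comparison and a limma adjusted p of 0.562. It was 0.36 without the second DHA pool. Below the median were also Il20rb and Il22ra2 of the interleukin-10 family, Il17b, Il17f and Il17re of the interleukin-17 family, Il12a, Il12b and Il23a of the interleukin-12 family, and Il3, Il5, Il3ra and Il5ra.

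Tnf, the leading cytokine of endothelial activation, was below the median. It read 4.63 and 4.74 in Control, 4.63 and 4.66 in Western and 4.73 and 4.57 in Western plus DHA, and all 6 arrays lay within 0.17 of each other. A second, dimmer probe set read 3.74 and 3.27, then 3.91 and 3.61, then 3.94 and 3.78, with both DHA arrays above both Control arrays and a difference of 0.35 ± 0.184, against −0.04 ± 0.126 for the first. The 95% interval of the difference from Control for the first probe set, unadjusted, ran from −0.33 to 0.25 in the DHA diet.

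Of the 4 adhesion molecules Vcam1 and Icam1 were at or above the median. Vcam1, the endothelial ligand of the integrin VLA-4 whose promoter is printed above, read 6.22 and 6.32 in Control, 6.70 and 6.54 in Western and 7.19 and 6.31 in Western plus DHA. Both Western arrays lay above both Control arrays, by 0.35 ± 0.252 with a limma adjusted p of 1. The first DHA pool was the highest array and the second lay within the Control range. The difference from Control was 0.48 ± 0.252 in the DHA diet, and 0.03 without the first pool. Icam1, the ligand of the integrin LFA-1 and also with a printed promoter, ranged from 6.72 to 7.21 with overlap among all 3 diets. Its differences were 0.15 ± 0.180 for Western against Control and 0.12 ± 0.180 for Western plus DHA against Control. Selp (P-selectin) and Sele (E-selectin), on which leukocytes roll, had means of 4.47 and 4.01. Selp read 4.81 and 4.47 on the DHA arrays, both above its higher Control array at 4.44, and the difference was 0.42 ± 0.182, or 0.20 without the first Control array. A dimmer Selp probe set differed by 0.03.

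**Figure D3:**
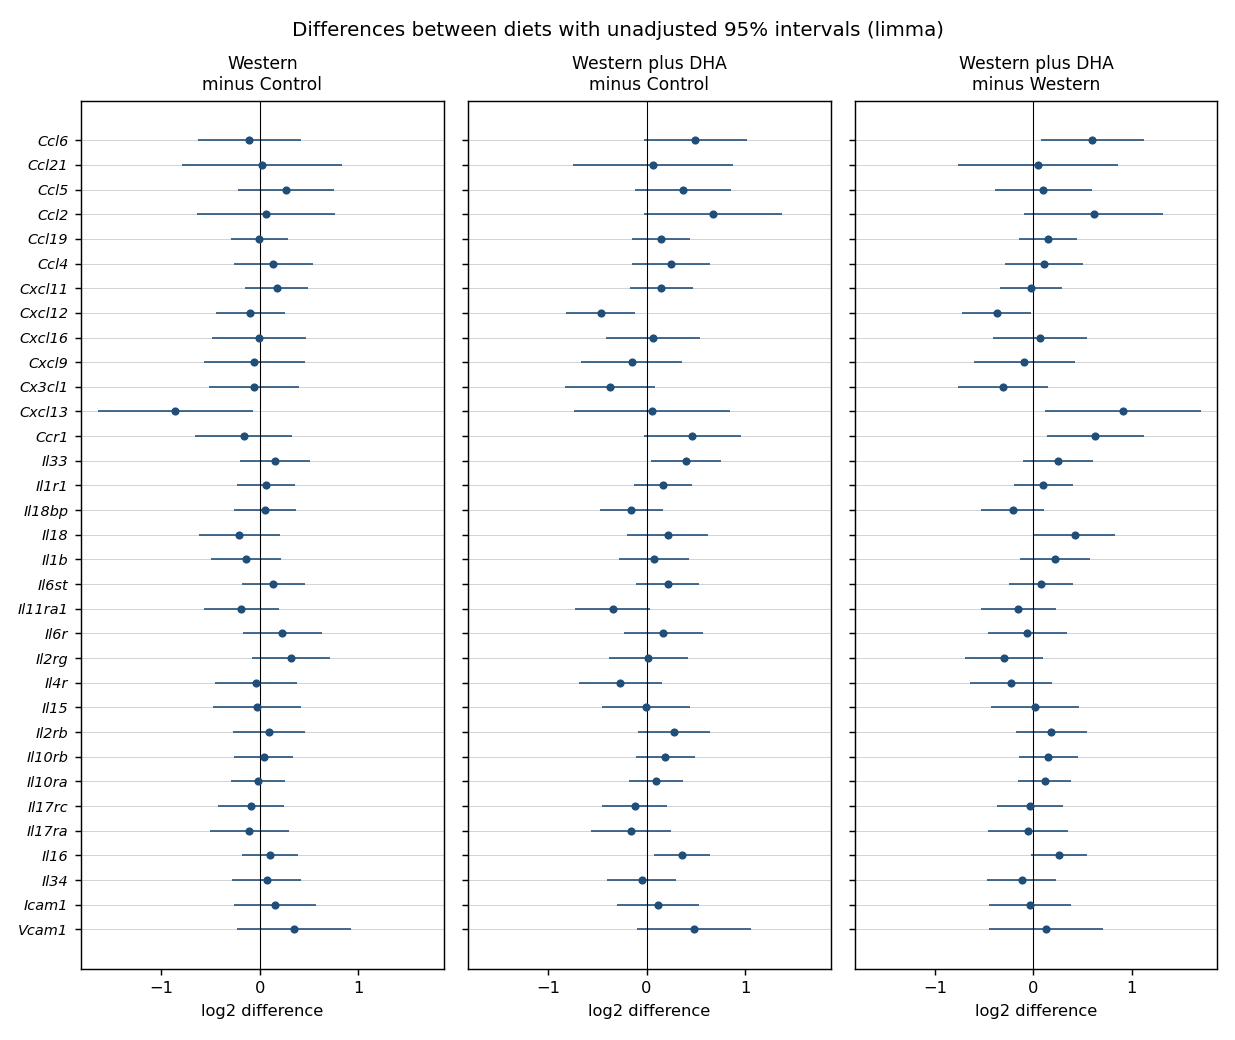
Log2 difference (horizontal axis) between diets of the 33 genes at or above the median, with unadjusted 95% intervals from limma, in 3 panels for Western minus Control, Western plus DHA minus Control and Western plus DHA minus Western. Most intervals cross 0, Cxcl13 has the widest swing at −0.86 and 0.91, and no gene passed the adjusted threshold.

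Read as a list, the 33 genes leaned above 0 in the DHA diet. The median log2 difference was 0.12 for Western plus DHA against Control, beside −0.0066 for all 9308 genes at or above the median, and 0.078 against Western, beside −0.0018. For Western against Control it was 0.019 beside −0.013. In that comparison with Control 23 of the 33 lay above 0, which is 69.7% beside 48.6% of all such genes, and both DHA arrays lay above both Control arrays in 11, or 33.3% beside 17.2%. These 11 were Ccl2, Ccl19, Cxcl11, Il1b, Il1r1, Il2rb, Il6st, Il10ra, Il10rb, Il16 and Il33. For Ccl2 the second DHA array exceeded the first Control array by less than the rounding of the values given above. Among other probe sets of these genes, that of Il33 and a dimmer one of Il1r1 had the same order. Another Il6st probe set above the median had the reverse order, and the rest, among them that of Il10ra, overlapped. The reverse held in 2, Cxcl12 and Il11ra1, beside 18.2%. At an unadjusted p under 0.05, Il16 and Il33 were higher, beside 2.95% of all such genes, and Cxcl12 was lower, beside 5.5%.

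Against Western, 20 of the 33 lay above 0, beside 49.5% of all such genes. Both DHA arrays were above both Western arrays in 11, or 33.3% beside 20.7%. Ccl6, Ccl19, Ccr1, Cxcl13, Il2rb, Il6st, Il10ra, Il10rb, Il16, Il18 and Il33 made up this set. Cx3cl1, Cxcl12, Il2rg and Il18bp were the 4 with the reverse order, beside 18.4%. At an unadjusted p under 0.05, Ccl6, Ccr1, Cxcl13 and Il18 were higher, beside 1.29%, and Cxcl12 was lower, beside 1.7%.

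For Western against Control the counts of the list lay on both sides of those of all genes. Of the 33, 17 lay above 0, or 51.5% beside 45.8% of all such genes. Both Western arrays lay above both Control arrays in 4, Ccl5, Il2rg, Il33 and Vcam1, which is 12.1% beside 12.2%. The reverse held in 2, Cxcl13 and Il18, or 6.06% beside 13.5%. At an unadjusted p under 0.05 there were 0 higher, beside 0.602%, and 1 lower, Cxcl13, or 3.03% beside 0.494%.

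For the 57 genes below the median, the counts are set beside 4909 genes of that range. Taking the comparisons in the order Western over Control, DHA over Control and DHA over Western, both arrays of the first diet were higher in 16, 22 and 14 of them, beside 24.9%, 31.9% and 21.2%. As shares of the 57 these are 28.1%, 38.6% and 24.6%. The reverse held in 3, 2 and 4, beside 8.8%, 6.95% and 11.2%. A difference above 0 was found in 39, 44 and 39, beside 64.0%, 72.2% and 60.4%. The median difference was 0.05, 0.15 and 0.07, beside 0.05, 0.09 and 0.04. At an unadjusted p under 0.05, 3, 10 and 1 were higher, or 5.26%, 17.5% and 1.75% beside 2.89%, 7.31% and 3.52%, and 0 were lower in each, beside 0.774%, 1.12% and 1.02%. The 3 were Ccl20, Ccr2 and Il1r2, and the 1 was Ccl17. The 10 were Ccl3, Ccl11, Ccl17, Ccr2, Cxcl1, Cxcl14, Il2, Il7, Il24 and Selp.

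The 2 Western plus DHA pools disagreed over most of these genes. The first exceeded the second in 28 of the 33, which is 84.8% beside 62.9% of all genes at or above the median. The signed difference between these pools had a median of 0.36 log2 units, beside 0.07 for all genes, while it was 0.06 between the Control pools and −0.01 between the Western pools. Without the sign, the median gap was 0.36 between the DHA pools, 0.27 between the Control pools and 0.14 between the Western pools, beside 0.17, 0.18 and 0.10 for all genes. The Control pools thus also differed over these genes, but in both directions. Of the 33 genes, 17 were highest on the first Western plus DHA array, or 51.5% beside 23.1%, and 0 were lowest there, beside 10.4%. The second Western plus DHA array was the lowest for 12 of the 33, beside 33.5%. The 17 were Ccl2, Ccl4, Ccl5, Ccl6, Ccl21, Cxcl9, Cxcl13, Cxcl16, Ccr1, Il1b, Il1r1, Il10ra, Il15, Il16, Il18, Il33 and Vcam1. Among the 57 genes below the median 22 were highest there, or 38.6% beside 18.9%, including Ccl3, Ccl7, Cxcl1, Cxcl10, Il6, Sele and Selp. The first Control array was the highest for 6 of the 33, beside 29.7%, and the lowest for 10, beside 28.6%. It was the lowest for 28 of the 57 genes below the median, which is 49.1% beside 30.6%, among them Ccl7, Ccr2, Cxcl1 and Selp.

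**Figure D4:**
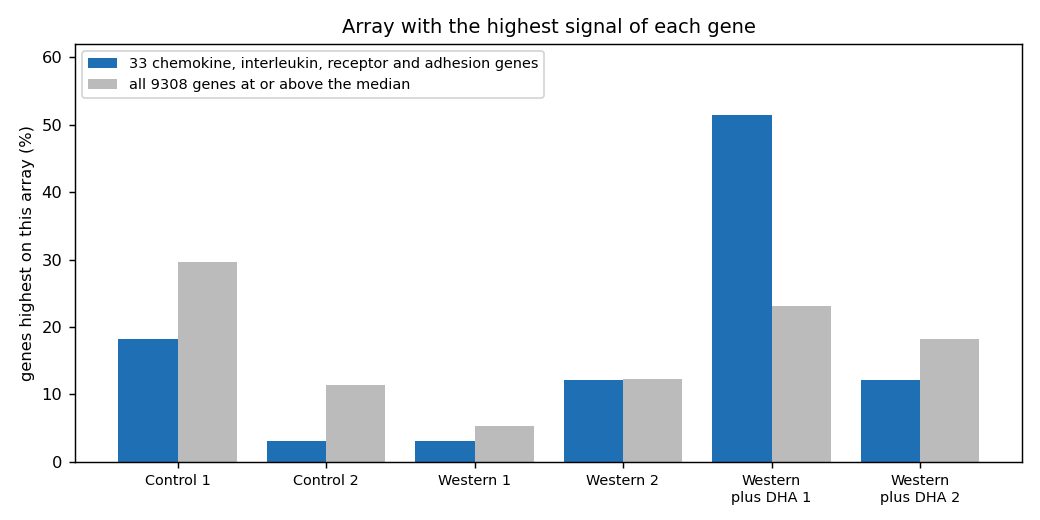
Share of genes (percent, vertical axis) whose highest signal fell on each of the 6 arrays, for the 33 genes (blue) and for all 9308 genes at or above the median (grey). The first Western plus DHA array holds 51.5% of the 33 genes and 23.1% of all genes.

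**Figure D5:**
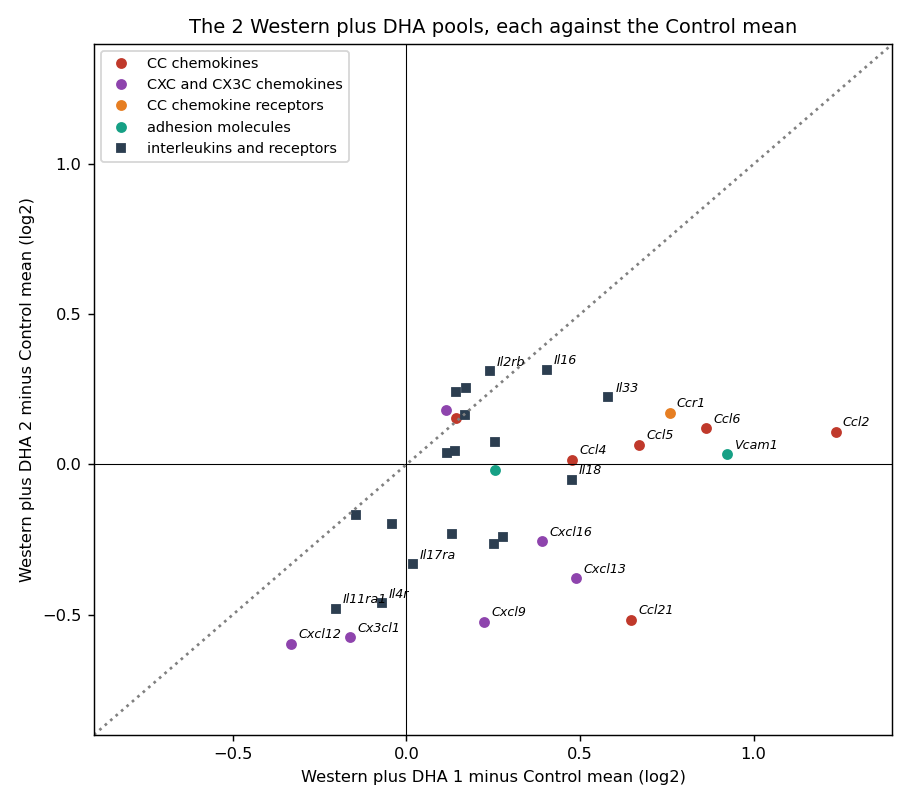
Each Western plus DHA pool minus the Control mean (log2) for the 33 genes, the first pool on the horizontal and the second on the vertical axis, with the dotted line where both are equal. Most points lie below the line: Ccl2 sits at 1.24 and 0.11, Vcam1 at 0.92 and 0.03, while Il16 and Il33 lie above 0 on both axes.

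Without the first Western plus DHA pool the lean of the list was small against Control and turned below 0 against Western. With that pool left out, the median difference of the 33 genes from Control was 0.02, and from Western −0.11. Without the second pool these medians were 0.24 and 0.16. Over all 9308 genes the first pool also exceeded the second, by a median of 0.07, so part of this shift is not particular to the list. Taken alone, the second Western plus DHA array lay above both Control arrays in 11 genes, beside 30.1%, and below both in 14, beside 44.0%. The first alone lay above both Control arrays in 25, beside 36.3%. In the comparison with Western, the second alone was above both Western arrays in 11, beside 34.6%, and below both in 16, beside 46.6%, while the first alone was above both in 22, beside 43.2%.

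Markers of several cell types, macrophages among them, summed highest on the first Western plus DHA array. For macrophage markers the log2 of the summed signal was 10.65 and 10.37 in Control, 10.49 and 10.40 in Western and 10.94 and 10.29 in Western plus DHA. Of the 11 measured, 9 were highest on the first DHA array, beside 23.1% of all genes at or above the median. All 11 were higher there than on the second, beside 62.9%. The same held for 9 of 9 endothelial, 8 of 8 fibroblast and 5 of 9 cardiomyocyte markers, all at or above the median. The other lists hold markers below the median, where the share of all genes was 40.3%. Among these it held for 8 of 10 T cell, 6 of 8 mast cell and 6 of 8 epicardial and mesothelial markers. It also held for 4 of 7 neutrophil, 3 of 5 erythroid, 3 of 7 adipocyte and 0 of 4 B cell markers. T cell markers summed to 8.40 on the first DHA array and to 7.99 to 8.27 on the other 5, and mast cell markers to 8.52 and to 8.10 to 8.24. Fibroblast markers summed to 14.33 and to 13.98 to 14.18, epicardial and mesothelial markers to 8.32 and to 7.91 to 8.10, and erythroid markers to 13.02 and to 12.37 to 12.90. Adipocyte markers summed to 12.43 and to 12.05 to 12.29 on the others. The brightest marker weighs most in a sum, here Hbb (mean 12.7) for erythroid cells and Fabp4 (mean 11.8) for adipocytes. Counted singly, 3 of 5 erythroid and 2 of 7 adipocyte markers were highest on the first DHA array. The shares of all genes were 23.1% at or above the median and 18.9% below it. Endothelial markers ran from 12.01 on the second DHA array to 12.36 on the first, and neutrophil markers were highest on the second Western array, at 8.31. Between the 3′ and 5′ control probe sets of beta-actin, the log2 gap was 1.87 on the first DHA array, 1.82 on the first Control array and 1.48 to 1.54 on the other 4, while that of GAPDH was 0.45 and 0.68 on the same 2 arrays and 0.30 to 0.47 on the rest. The part of any of these in the chemokine and interleukin values was not tested.

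Genes of the pathway that do not carry these symbols gave 0 calls in each comparison as well. The lists mix genes at or above the median with genes below it. Of all genes at these 2 levels, 48.6% and 72.2% lay above 0 for Western plus DHA against Control. Their medians were −0.0066 and 0.09. Of 14 measured chemokine receptors and ligands named otherwise, 12 lay above 0 for Western plus DHA against Control, with a median of 0.20. Ackr4, a scavenger receptor of Ccl19 and Ccl21, read 5.99 and 5.50 on the DHA arrays and 5.21 and 5.45 in Control, a difference of 0.41 with a limma adjusted p of 0.56, or 0.17 without the first DHA pool. NF-kappaB subunits and their regulators leaned the other way, with 10 of 12 below 0 and a median of −0.19. Nfkb2, a precursor subunit, read 7.12 and 6.42 in Control and 6.14 and 6.32 in Western plus DHA, a difference of −0.54 ± 0.22, or −0.19 without the first Control array. Ikbkb, the kinase that releases NF-kappaB from its inhibitor, differed by −0.40 ± 0.18, or −0.14 without the second DHA pool. Neither passed the test.

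The counts that follow stand beside the same 48.6% and 72.2% of all genes at the 2 levels. Of 15 JAK, STAT and SOCS genes 9 lay above 0 for Western plus DHA against Control, with a median of 0.05. Stat3, which carries the gp130 signal, read 9.81 and 9.06 in Control, 9.05 and 8.93 in Western and 8.45 and 8.91 in Western plus DHA, a difference of −0.75 ± 0.25 from Control with a limma adjusted p of 0.56, and of −0.38 without the first Control array. Of 11 adaptors of interleukin-1 and Toll-like receptors 8 lay above 0, with a median of 0.15. Casp1, the protease that matures interleukins 1 beta and 18, differed by 0.31 and Tollip, an inhibitor of the same receptors, by −0.32. Of 16 receptors and adaptors of the tumour necrosis factor superfamily 6 lay above 0, with a median of −0.04. Of 9 leukocyte integrins and selectin ligands 7 lay above 0, with a median of 0.09. Of 7 further gp130 ligands and receptors 2 lay above 0, with a median of −0.02, and Osm, oncostatin M, differed by 0.33. For Western against Control the medians of these 7 lists lay between −0.10 and 0.10, and for Western plus DHA against Western between −0.11 and 0.08.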

How the data were processed

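RNA of left ventricular tissue was hybridised to 6 Affymetrix arrays, each with a pool of 5 rats, 2 pools per diet, per the labels. The authors deposited log2 values. The submitters' processing notes name RMA and R 2.11.0. No genome build or earlier step is named there. The authors also deposited log2 differences and p-values per comparison, which were used as a check: the log2 differences here differed from theirs by at most 5e-08 and the p-values by at most 0.000232, with 57 control probe sets left out here. Gene symbols are those of the platform annotation, brought up to date with the RefSeq gene table of GRCr8. Of 31042 probe sets 20826 had 1 symbol, 436 several and 9780 none, and 2 probe sets with several symbols were left out of the members.

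The test between diets was limma 3.58.1 (R 4.3.3) on these log2 values, with 1 mean per diet over all 6 arrays, Benjamini-Hochberg adjustment over all probe sets and a threshold of 0.05. Standard errors are those of limma, with 3 residual and 5.28 prior degrees of freedom. The code was tested on simulated data, with 200 changed probe sets per run, for Western plus DHA against Control. At the threshold used it recovered 0% of changes of 0.5 log2 units, 95.6% of those of 1 and 99.9% of those of 2. These shares hold for the simulated probe sets and were not measured for the 33 genes, whose standard errors had a median of 0.174. In the measured data of the same comparison, differences among the 9308 genes reached 1.96, and 0 of these genes were called. The neutrophil marker S100a9, at 0.85 ± 0.15, had a limma adjusted p of 0.52. A missing call therefore does not exclude a change of about 0.5 log2 units, nor one of about 1. The members, gene lists and tests were chosen with earlier results of these data known. Genes were named by a rule: a panel of 24, of which 23 were measured, any gene passing the test, per comparison up to 6 genes per direction whose arrays did not overlap, the 3 genes below the median with the smallest p, the 8 brightest, the 3 on each side of the median, and up to 3 genes per pathway list. Other members were named to account for their families, after their values were seen. Just above the median were Il1b, Il10ra and Il34 (5.54, 5.53 and 5.48), and just below were Cxcl3, Il3ra and Ccl3 (5.22, 5.14 and 5.06). Alternatives were a replicate block, a filter on low signal, 2 normalizations, an intensity trend, only the 4 arrays compared, averaging the probe sets of each gene and leaving out each array. The labels name no batch, and the number of arrays limits the precision.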

Additional observations from a re-analysis of the deposited data

How the results depend on the processing

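No member was called in any comparison under any alternative run, with adjusted p no lower than 0.434 for Western against Control, 0.130 for Western plus DHA against Control and 0.634 for Western plus DHA against Western. With an array left out, the lone pool of that diet is assumed to vary like the others. Replicate numbers did not pair the arrays: the correlation of pool differences was −0.21 between Control and Western, 0.20 between Control and Western plus DHA and −0.23 between Western and Western plus DHA. With replicate number as a block, 0 members were called. Each number occurs once per diet, so the block cannot move a log2 difference (medians 0.02, 0.12 and 0.08).

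Over all probe sets, Western plus DHA against Control called 1, then 2 with the probe sets of each gene averaged, 0 with only the 4 arrays compared and 0 to 2 with an array left out. Western plus DHA against Western called 0, then 1 with an intensity trend and 1 with quantile normalization again. The median of the 33 genes for Western against Control was 0.02, then 0.052 with quantile normalization and −0.012 to 0.055 with an array left out. For Western plus DHA against Western it ran from −0.11 to 0.16, and for Western plus DHA against Control from 0.017 to 0.24. As counts added after seeing the data, without the first Western plus DHA pool 14 members instead of 2 lay below both Control arrays and 16 instead of 4 below both Western arrays, while those above numbered 11 and 11. A single array meets this rule more easily: over all genes at that level the share below went from 18.2% to 44.0% and from 18.4% to 46.6%, beside 42.4% and 48.5% of the members.

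Signs turned in these cases, and the cause was not tested. For Western against Control, Cxcl16 was 0.010 with cyclic loess and 0.025 with quantile normalization. Tnf with its probe sets averaged was 0.11, 0.15 and 0.048 in the 3 comparisons. Il15 was 0.0035 with cyclic loess and 0.034 with quantile normalization for Western plus DHA over Control, and Il6st was −0.073 with its probe sets averaged for Western plus DHA over Western. Leaving out an array turned the sign of 21, 11 and 13 of the 33 genes in the 3 comparisons.

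For Western against Control the range with an array left out was −0.048 to 0.17 for Ccl2, −0.38 to 0.051 for Ccr1, −0.31 to 0.19 for Cx3cl1, −0.23 to 0.038 for Cxcl12, −0.14 to 0.13 for Cxcl16, −0.037 to 0.34 for Icam1, −0.14 to 0.22 for Il10, −0.17 to 0.12 for Il15, −0.34 to 0.056 for Il1b, −0.25 to 0.17 for Il4r, −0.016 to 0.47 for Il6r, −0.016 to 0.29 for Il6st, −0.26 to 0.16 for Sele and −0.097 to 0.014 for Tnf. It was, for Western plus DHA over Control, −0.26 to 0.39 for Cxcl16, −0.071 to 0.31 for Icam1, −0.26 to 0.25 for Il15, −0.050 to 0.48 for Il18, −0.11 to 0.30 for Il6, −0.077 to 0.41 for Il6r, −0.35 to 0.23 for Sele and −0.12 to 0.037 for Tnf. Over Western the DHA diet ranged from −0.20 to 0.40 for Ccl5, −0.0089 to 0.19 for Ccr2, −0.25 to 0.40 for Cxcl16, −0.19 to 0.12 for Icam1, −0.11 to 0.25 for Il10, −0.24 to 0.28 for Il15, −0.16 to 0.041 for Il6r, −0.30 to 0.28 for Sele, −0.067 to 0.27 for Selp, −0.080 to 0.078 for Tnf and −0.32 to 0.57 for Vcam1.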
